A study of Mus musculus with 24 samples.

Results

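The calcium store of skeletal muscle was described through 9 genes: the SERCA pumps Atp2a1 and Atp2a2, the small pump-binding proteins (regulins) Sln, Pln and Mrln, the calcium buffers of the store Casq1, Casq2 and Hrc, and the cytosolic buffer Pvalb. They were taken by symbol from 19938 genes with an annotated probe set, each had 1 probe set, and all 9 were among the 15999 genes bright enough to be tested. RNA came from whole muscles of male mice aged 40 to 42 days, of mixed background (C57BL/6J with 1219S6/SvEvTac), hybridised to 24 Affymetrix arrays. The groups were quadriceps cKO, quadriceps control, soleus cKO and soleus control, with 6 biological replicates in each. Every mouse carried 2 copies of a conditional allele of nebulin, the giant protein that runs along the thin filament. The cKO mice also had 1 copy of the MCK-Cre transgene and the controls had no Cre. The muscle creatine kinase promoter restricts Cre to muscle, so the other cells of the tissue keep an intact nebulin gene. The quadriceps was markedly smaller in cKO mice and the soleus was not significantly smaller, per the series' design text.

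SERCA pumps use ATP to move calcium out of the cytosol into the sarcoplasmic reticulum, the internal calcium store of the muscle fibre, and this lets the fibre relax after each contraction. Atp2a1 encodes SERCA1, the pump of fast fibres, and Atp2a2 encodes SERCA2, the pump of slow fibres and of the heart. Sarcolipin, phospholamban and myoregulin sit in the membrane beside the pump and lower its calcium uptake, the calsequestrins hold calcium at high concentration inside the store, and parvalbumin binds it in the cytosol of fast fibres.

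The genome around these genes is given in mouse build GRCm38.p6. Atp2a1 lies at chr7:126445858-126463103, Atp2a2 at chr5:122453513-122502225, Sln at chr9:53850251-53853849 and Pln at chr10:53337686-53345999. Mrln lies at chr10:70204664-70219711, Casq1 at chr1:172209894-172219895, Casq2 at chr3:102086415-102146514, Pvalb at chr15:78191112-78206400 and Hrc at chr7:45335269-45338973. RefSeq promoters were found for 7 of the 9 genes. Those of Casq2, Mrln and Pvalb are printed because, of these 7, they had the largest changes in cKO muscle. Each line holds the 250 bases before the annotated gene start, 5′ to 3′ on the gene's own strand, and capitals mark CANNTG, the E-box that myogenic factors can bind, or a MEF2 box.
Casq2, chr3:102086165-102086414, plus strand: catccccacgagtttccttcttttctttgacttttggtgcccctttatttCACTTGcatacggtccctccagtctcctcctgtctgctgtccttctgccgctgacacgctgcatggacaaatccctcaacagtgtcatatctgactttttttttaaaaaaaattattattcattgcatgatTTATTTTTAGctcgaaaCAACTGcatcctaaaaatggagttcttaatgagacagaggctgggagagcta
Mrln, chr10:70204414-70204663, plus strand: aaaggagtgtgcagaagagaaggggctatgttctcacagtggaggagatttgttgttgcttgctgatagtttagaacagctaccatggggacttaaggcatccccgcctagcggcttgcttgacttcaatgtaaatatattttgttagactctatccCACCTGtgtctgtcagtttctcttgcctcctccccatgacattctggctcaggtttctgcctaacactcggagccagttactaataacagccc
Pvalb, chr15:78206401-78206650, minus strand: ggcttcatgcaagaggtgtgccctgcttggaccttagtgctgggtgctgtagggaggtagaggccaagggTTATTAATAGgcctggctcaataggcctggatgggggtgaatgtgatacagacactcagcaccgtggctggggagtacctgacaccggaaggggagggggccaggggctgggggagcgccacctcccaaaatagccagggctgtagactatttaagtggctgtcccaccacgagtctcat
A MEF2 box stood at positions -69 to -60 before the start of Casq2 and at -180 to -171 before that of Pvalb. Whether any motif bears on the changes in cKO muscle was not tested. The promoter windows of Atp2a1, Pln, Mrln, Casq1 and Hrc held no MEF2 box. CANNTG stood at -200 to -195 and -52 to -47 in the Casq2 window and at -93 to -88 in the Mrln window. It was also present in the windows of Atp2a1, Pln, Casq1 and Hrc, but not in the printed Pvalb window. A second Pvalb window, chr15:78204238-78204487, held CANNTG at -111 to -106 and no MEF2 box. That window and the one of Atp2a1 did not end at the annotated gene start. On both strands, 2.92% of 32851 mouse promoter windows of the same length held a MEF2 box and 66.2% held CANNTG. None of these matches overlapped another.

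Neb itself averaged 10.84 ± 0.23 in quadriceps cKO and 12.29 ± 0.17 in quadriceps control (log2 intensity, SD, n = 6 each), and 11.24 ± 0.20 in soleus cKO against 12.38 ± 0.21 in soleus control. It fell by 1.45 and 1.14 on the log2 scale in quadriceps and soleus (limma, Benjamini-Hochberg adjusted p = 1.41e-10 and 2.27e-08), and the groups did not overlap in either muscle. All 8 slow-fibre and all 9 fast-fibre markers were above the dim limit on at least 1 array of every group. In controls, the summed intensity of the slow-fibre markers was 27470 to 38870 in soleus and 3302 to 9570 in quadriceps. Arrays that stood apart were soleus control 1, whose slow-fibre sum of 38870 compares with 27470 to 30360 on the other soleus controls, and quadriceps controls 1 and 6, with 9570 and 7824 against 3302 to 4530. Quadriceps control 4 had the lowest array weight, 0.207. No call of the 9 genes between cKO and control was lost when any of these arrays was left out.

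In quadriceps, loss of nebulin was accompanied by higher Sln, Casq2 and Atp2a2, by 9.23, 4.51 and 3.42 times, and by lower Mrln, by 2.86 times. Atp2a1, Casq1 and Hrc fell by small amounts. In soleus, Sln and Casq2 rose again, by 4.22 and 1.86 times, and the largest fall was that of Pvalb, 7.77-fold, followed by Pln, Mrln and Atp2a1. Of the 9 genes, 3 rose and 4 fell in quadriceps, where 22.3% and 17.7% of all tested genes were called higher and lower (40.0% in all). In soleus 2 rose and 4 fell, where 13.2% and 9.94% of all genes were called (23.1% in all). A gene was called where limma's adjusted p over all 15999 genes was under 0.05. The median log2 difference of the 9 genes was -0.25 in quadriceps and 0.04 in soleus, against -0.01 and -0.02 over all tested genes. The share of calls that were higher depended on scaling: it was 55.7% in quadriceps as deposited and 37.5% after centring each array on its 75th percentile. The arrays of cKO and control did not overlap for 7 of the 9 genes in quadriceps, where this held for 16.2% of all genes, and for 5 of 9 in soleus, where it held for 12.8%. RNA was taken from whole muscle, so fewer cells of a type and less RNA per cell cannot be told apart in any of these values.

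**Figure D1:**
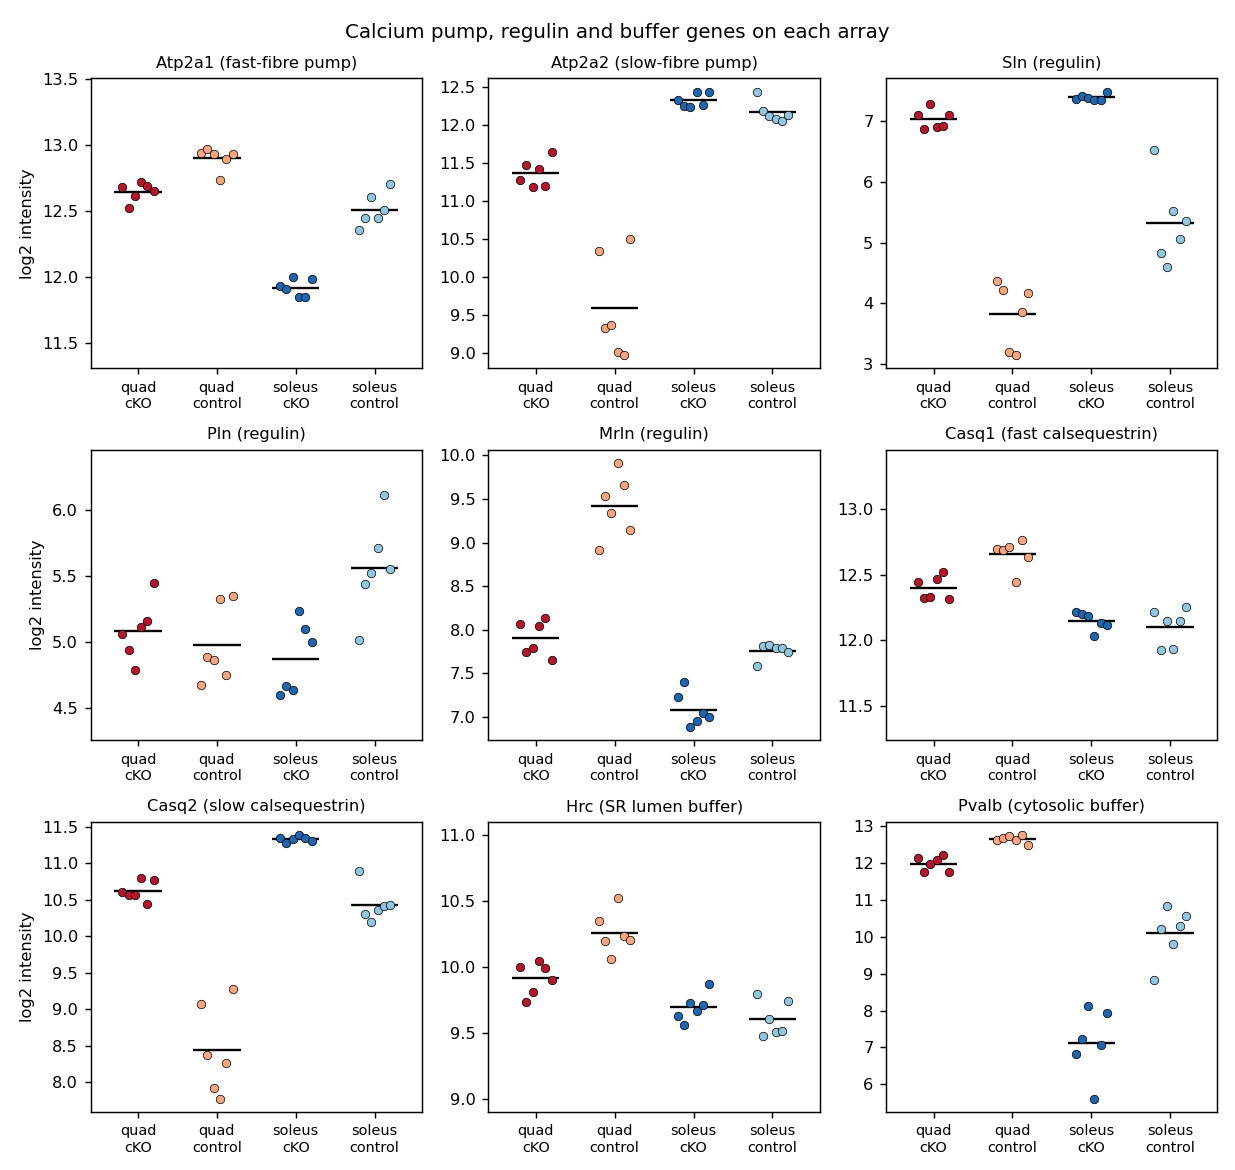
Log2 intensity of each of the 9 genes on every array (points) with the group mean (bar), for quadriceps cKO, quadriceps control, soleus cKO and soleus control, 6 arrays each. Sln lies between 6.88 and 7.49 in both cKO muscles, above every control array, and Pvalb spans from 5.62 in soleus cKO to 12.75 in quadriceps control.

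Atp2a1, the fast pump, ranged from 12.53 to 12.72 (median 12.67) in quadriceps cKO and from 12.73 to 12.97 (median 12.93) in quadriceps control, as log2 intensity. The control values sat just above the cKO values without overlap, and the lowest of them was control 4. The log2 difference was -0.25 ± 0.07 (SE, adjusted p = 0.00311, limma), and after quantile normalization it was -0.14 with an adjusted p of 0.0810, so the call was lost there. In soleus, Atp2a1 ranged from 11.84 to 12.00 (median 11.92) in cKO and from 12.35 to 12.70 (median 12.48) in control. All 6 cKO arrays were below all 6 control arrays, and the fall was 0.59 ± 0.07 (SE) on the log2 scale (adjusted p = 1.29e-07). The change in quadriceps minus that in soleus was 0.34 ± 0.09 (SE, adjusted p = 0.0160), so the fall was smaller in quadriceps; with median centring this difference was 0.30 with an adjusted p of 0.0642. Atp2a1 was close to the top of the scale, within 0.28 of the brightest probe set on 1 array, as were Casq1 and Pvalb within 0.49 and 0.51. Atp2a2 came within 0.77 of it in soleus. Whether the differences of these genes are compressed there was not tested.

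Atp2a2, the slow and cardiac pump, ranged from 11.18 to 11.65 (median 11.35) in quadriceps cKO and from 8.98 to 10.51 (median 9.35) in quadriceps control. Every cKO array was above every control array, and the highest controls were arrays 1 and 6, the 2 with high slow-fibre markers. The rise was 1.77 ± 0.19 on the log2 scale (SE, adjusted p = 2.30e-08, limma) and 2.19 without those 2 controls. In soleus, Atp2a2 ranged from 12.24 to 12.44 (median 12.30) in cKO and from 12.05 to 12.44 (median 12.13) in control. The groups overlapped because control 1 was nearly as high as the highest cKO array. The difference of 0.16 did not pass the test (95% interval -0.22 to 0.54, adjusted p = 0.591), and without control 1 it was 0.21 (adjusted p = 0.483). The fit shares 1 estimate of spread among the 4 groups. Atp2a2 had SDs of 0.09 in soleus cKO and 0.14 in soleus control, against 0.67 in quadriceps control, so the interval is wide for the soleus arrays. The soleus difference was not called in any of 37 alternative settings, most of which left out 1 array (lowest adjusted p = 0.135, limma). The 2 muscles differed in this change by 1.62 ± 0.26 on the log2 scale (SE, adjusted p = 0.000183).

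The relative weight of the 2 pumps was followed as the log2 ratio of Atp2a2 to Atp2a1 within each array. Because the probe sets differ, only shifts between groups can be read from it, not which transcript was more abundant. The ratio averaged -1.28 ± 0.21 in quadriceps cKO and -3.31 ± 0.63 in quadriceps control, and 0.41 ± 0.12 in soleus cKO and -0.34 ± 0.23 in soleus control (SD, n = 6 each). It was thus shifted towards the slow pump by 2.03 in cKO quadriceps and by 0.75 in cKO soleus, against 2.97 between soleus and quadriceps of controls. The ranges of cKO and control did not overlap in either muscle. No test was made on the ratio.

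**Figure D2:**
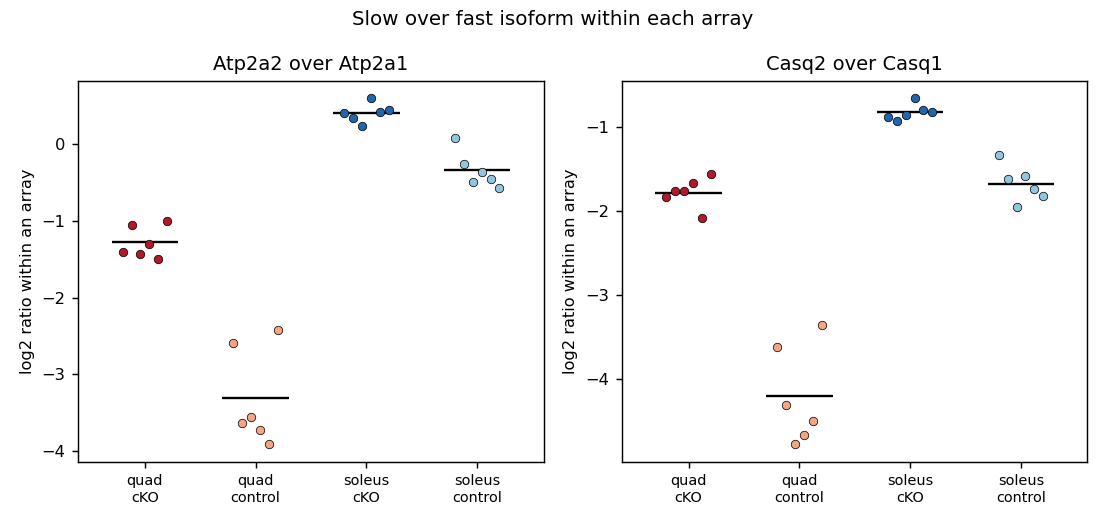
Log2 ratio of Atp2a2 to Atp2a1 and of Casq2 to Casq1 on each array (points) with the mean (bar) of the 6 arrays of quadriceps cKO, quadriceps control, soleus cKO and soleus control. Both ratios are higher in cKO than in control in both muscles, with no overlap, and the quadriceps shifts of 2.03 and 2.43 exceed the soleus shifts of 0.75 and 0.85.

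Sln encodes sarcolipin, a short membrane peptide that lets SERCA spend ATP without moving calcium. It ranged from 6.88 to 7.29 (median 7.01) in quadriceps cKO and from 3.15 to 4.37 (median 4.01) in quadriceps control, where 2 of the 6 arrays were at or below the dim limit. The gap between the groups was wider than the range of either, and the rise was 3.21 ± 0.23 on the log2 scale (SE, adjusted p = 2.26e-11, limma). Since some controls were near the floor of the array, the 9.23-fold value depends on that floor. In soleus, Sln ranged from 7.36 to 7.49 (median 7.37) in cKO and from 4.59 to 6.53 (median 5.21) in control. No control reached the lowest cKO array, and the highest control was array 1. The rise was 2.08 ± 0.23 (SE, adjusted p = 1.10e-07), and 2.32 without control 1. The quadriceps rise exceeded the soleus rise by 1.13 ± 0.32 (SE, adjusted p = 0.0204); after quantile normalization the excess was 0.97 and was not called (adjusted p = 0.0646). The cKO arrays were tightly grouped, with SDs of 0.16 in quadriceps and 0.05 in soleus, against 0.53 and 0.68 in the controls.

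Mrln encodes myoregulin, the regulin found mainly in skeletal muscle, and moved against Sln. It ranged from 7.66 to 8.13 (median 7.91) in quadriceps cKO and from 8.92 to 9.91 (median 9.44) in quadriceps control. The groups were far apart, and the lowest controls were arrays 1 and 6. The fall was 1.51 ± 0.13 on the log2 scale (SE, adjusted p = 3.94e-10, limma), and without those 2 controls the difference was -1.71. In soleus, Mrln ranged from 6.88 to 7.39 (median 7.02) in cKO and from 7.58 to 7.82 (median 7.79) in control. The lowest control, array 1, was still above all cKO arrays. The fall of 0.67 ± 0.13 (SE, adjusted p = 0.000193) was smaller than that in quadriceps, and the difference between the muscles was -0.84 ± 0.18 (SE, adjusted p = 0.00251).

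Pln encodes phospholamban, which restrains SERCA2 in heart and slow muscle until it is phosphorylated. It was dim on this platform but above the dim limit on all 24 arrays. In quadriceps it ranged from 4.79 to 5.45 (median 5.09) in cKO and from 4.67 to 5.35 (median 4.87) in control, 2 ranges that largely coincided. The difference of 0.11 did not pass the test (95% interval -0.20 to 0.43, adjusted p = 0.584, limma). In soleus it ranged from 4.60 to 5.23 (median 4.84) in cKO and from 5.01 to 6.12 (median 5.54) in control. The groups overlapped at the lowest control, array 1, and the fall was 0.69 ± 0.15 (SE, adjusted p = 0.00136), or 0.80 without that array (adjusted p = 0.000169). The 2 muscles differed in this change by 0.80 ± 0.22 (SE, adjusted p = 0.0160). Among 7 markers of smooth muscle and pericytes, cells that also contain phospholamban, 3 fell in soleus (Acta2 by 0.39, Myh11 by 0.66 and Rgs5 by 0.50) and 2 rose (Cspg4 by 0.62 and Des, which skeletal fibres also express, by 0.40). In quadriceps Cspg4 and Des rose, by 0.52 and 0.37, and none fell. Of all tested genes, 13.2% were called higher and 9.94% lower in soleus, and 22.3% and 17.7% in quadriceps. The summed intensity of these markers was 6799 to 7159 in soleus cKO and 6304 to 7024 in soleus control, and 6180 to 6793 in quadriceps cKO against 4282 to 6265 in quadriceps control. These sums include Des and so do not follow smooth muscle and pericytes alone, and the part of those cells in the Pln result was not tested.

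Casq2 encodes the calsequestrin of heart and slow fibres. It ranged from 10.43 to 10.79 (median 10.59) in quadriceps cKO and from 7.78 to 9.28 (median 8.31) in quadriceps control. The highest controls, arrays 1 and 6, stayed well below the lowest cKO array, and the rise was 2.17 ± 0.17 on the log2 scale (SE, adjusted p = 2.21e-10, limma) and 2.54 without them. In soleus it ranged from 11.27 to 11.38 (median 11.33) in cKO and from 10.19 to 10.89 (median 10.38) in control. Again no control reached the cKO range, and array 1 was the highest. The soleus rise of 0.90 ± 0.17 (SE, adjusted p = 0.000326) was 0.99 without that array, and the quadriceps rise exceeded it by 1.28 ± 0.25 (SE, adjusted p = 0.00112). Atp2a2 had no called change in the same soleus arrays, but no test compared the changes of Casq2 and Atp2a2.

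Casq1, the main calsequestrin of skeletal muscle, ranged from 12.32 to 12.52 (median 12.39) in quadriceps cKO and from 12.44 to 12.76 (median 12.69) in quadriceps control. The ranges overlapped at control 4, and the difference was -0.25 ± 0.07 (SE, adjusted p = 0.00555, limma). In soleus it ranged from 12.04 to 12.21 (median 12.16) in cKO and from 11.93 to 12.25 (median 12.15) in control. The cKO arrays lay inside the control range, and the difference was 0.04 (95% interval -0.10 to 0.19, adjusted p = 0.721). The change in quadriceps minus that in soleus was -0.30 ± 0.10 (SE) and narrowly missed the threshold (adjusted p = 0.0506); with animal as a block (arrays of 1 genotype that share a number) the adjusted p was 0.0222. The log2 ratio of Casq2 to Casq1 averaged -1.78 ± 0.18 in quadriceps cKO and -4.21 ± 0.59 in quadriceps control, and -0.82 ± 0.09 in soleus cKO and -1.67 ± 0.22 in soleus control (SD, n = 6 each). In quadriceps this was a shift of 2.43 towards the slow isoform, close to the 2.53 that separated soleus from quadriceps in controls. In soleus the shift was 0.85.

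Hrc encodes the histidine-rich calcium-binding protein, which buffers calcium in the store and binds SERCA and triadin. It ranged from 9.74 to 10.05 (median 9.95) in quadriceps cKO and from 10.06 to 10.52 (median 10.22) in quadriceps control. The groups met almost edge to edge without overlap, and the fall was 0.35 ± 0.08 on the log2 scale (SE, adjusted p = 0.00127, limma). In soleus it ranged from 9.56 to 9.87 (median 9.69) in cKO and from 9.48 to 9.79 (median 9.56) in control. The ranges largely coincided, with a difference of 0.09 (95% interval -0.08 to 0.25, adjusted p = 0.486). The 2 muscles differed in this change by -0.43 ± 0.11 (SE, adjusted p = 0.0131).

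Pvalb encodes parvalbumin, which speeds the relaxation of fast fibres by binding cytosolic calcium. It ranged from 11.74 to 12.21 (median 12.02) in quadriceps cKO and from 12.49 to 12.75 (median 12.64) in quadriceps control. All cKO arrays were below all controls. The log2 difference was -0.66 ± 0.30 (SE) and did not pass the test (95% interval -1.27 to -0.06, adjusted p = 0.0750, limma). In that fit the 4 groups share 1 estimate of spread, and Pvalb had SDs of 0.19 in quadriceps cKO and 0.09 in quadriceps control, against 0.89 in soleus cKO and 0.71 in soleus control. When only the 12 quadriceps arrays were fitted, the adjusted p was 5.03e-05. In soleus Pvalb ranged from 5.62 to 8.12 (median 7.15) in cKO and from 8.82 to 10.84 (median 10.26) in control. The lowest control was array 1 and the lowest cKO array was number 4, and the groups did not overlap. The fall was 2.96 ± 0.30 (SE, adjusted p = 2.40e-08), or a difference of -3.21 without control 1. The change in quadriceps minus that in soleus was 2.30 ± 0.42 (SE, adjusted p = 0.000613).

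**Figure D3:**
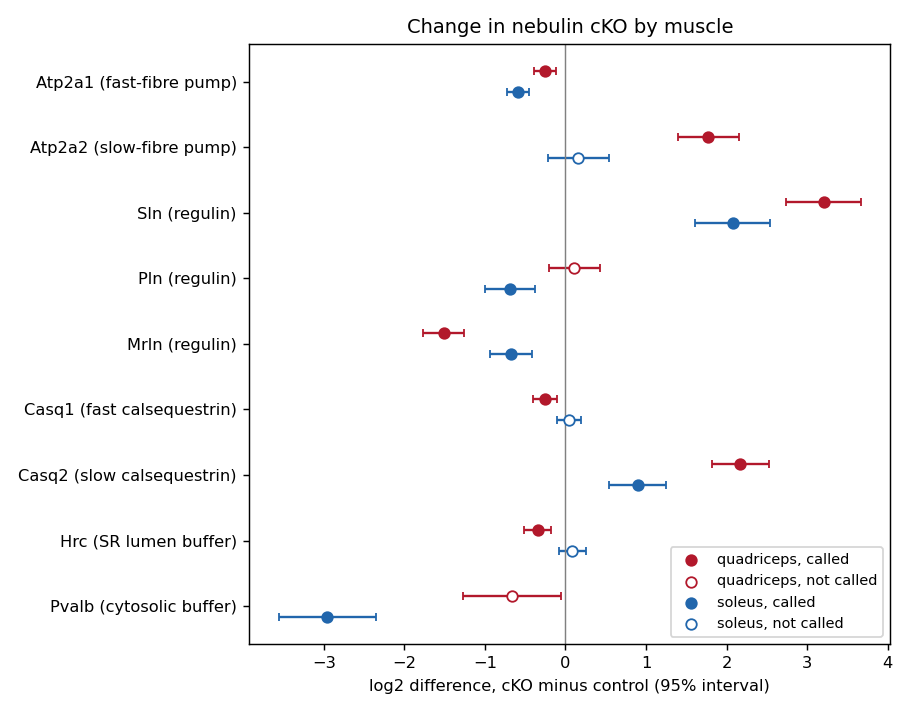
Log2 difference between cKO and control with its 95% interval (whiskers) for each of the 9 genes, in quadriceps (red) and in soleus (blue), filled where called (limma, 6 arrays per group). Sln is furthest to the right in both muscles (3.21 and 2.08), and Pvalb in soleus is furthest to the left (-2.96).

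Between the 2 muscles the change differed for 8 of the 9 genes, all but Casq1, where 12.3% of all tested genes were called for such a difference. The difference was positive for 6 genes and negative for Mrln and Hrc, where 7.39% and 4.89% of all genes were called in those directions. Positive calls were 60.2% of all calls as deposited, 45.6% with median centring and 48.7% with 75th percentile centring. For Atp2a2, Sln and Casq2 the positive sign came from a larger rise in quadriceps, and for Atp2a1 and Pvalb from a negative difference that was smaller in quadriceps. For Pln it came from a fall in soleus beside no called change in quadriceps. Mrln fell in both muscles and more so in quadriceps.

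The control muscles already differed in every one of the 9 genes, 4 higher and 5 lower in soleus, where 15.2% and 18.3% of all tested genes were called (33.5% in all). Of all these calls 45.4% were higher in soleus as deposited, 22.3% with median centring, which moved the median of all genes from 0.03 to -0.07 on the log2 scale, and 56.2% with 75th percentile centring. The 9 genes kept their calls under each scaling. Soleus was higher than quadriceps in Atp2a2 by 2.58, Casq2 by 1.98, Sln by 1.49 and Pln by 0.59 on the log2 scale, and lower in Pvalb (-2.55), Mrln (-1.66), Hrc (-0.65), Casq1 (-0.55) and Atp2a1 (-0.39). The adjusted p lay between 3.63e-11 and 0.00403 (limma). Atp2a2 and Casq2 are known as the slow-muscle forms of the pump and of calsequestrin. Between the cKO muscles 7 of the 9 genes were called, where 28.8% of all genes were; 41.3% of those calls were higher in soleus (1907 genes against 2707 lower), as deposited, with 1110 against 3524 under median centring and 68.6% higher with 75th percentile centring. The soleus-minus-quadriceps difference in cKO was 0.96 for Atp2a2, 0.71 for Casq2 and -0.82 for Mrln. For Pvalb it was -4.85, a 28.8-fold lower level in soleus. Sln was 0.36 higher in soleus cKO than in quadriceps cKO and Pln 0.21 lower, and neither passed the test (adjusted p = 0.228 and 0.298). The Sln arrays of the 2 cKO muscles did not overlap all the same, and when only those 12 arrays were fitted, without the wider spread of the controls, the difference was called (adjusted p = 0.00149). Hrc was 0.22 lower with an adjusted p of 0.0415, a call that was lost in 11 of 37 alternative settings.

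Set against control soleus, the cKO quadriceps passed no test in Mrln (0.15, 95% interval -0.11 to 0.41, adjusted p = 0.320), Casq2 (0.19, interval -0.17 to 0.55, adjusted p = 0.364) or Atp2a1 (0.14, interval 0.0025 to 0.27, adjusted p = 0.0818). The Atp2a1 difference was called in 4 of 37 alternative settings, with median centring (0.24, adjusted p = 0.0101), quantile normalization, array weights or without soleus control 6. It was lower in Atp2a2 (-0.80, adjusted p = 0.00100) and Pln (-0.48, adjusted p = 0.0124), a call that median centring removed for Pln (-0.38, adjusted p = 0.0524). It was higher in Pvalb by 1.89, in Sln by 1.72, in Hrc by 0.31 and in Casq1 by 0.29, where Hrc was not called after 75th percentile centring (0.18, adjusted p = 0.0769). In this comparison 50.3% of all tested genes were called, against 6 of the 9. Of all these calls 52.0% were higher in quadriceps cKO as deposited, 73.0% with median centring and 29.8% with 75th percentile centring, and the median of all genes was -0.01, 0.10 and -0.13 under the 3 scalings. The opposite pair, cKO soleus against control quadriceps, gave 8 of 9 calls, where 37.8% of all genes were called (49.2% of them higher, 36.2% with median centring). Pvalb was lower by 5.51 on the log2 scale there and Sln higher by 3.57.

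Ordered by group mean, Sln was highest in soleus cKO, then quadriceps cKO, soleus control and quadriceps control, and the first 2 were not told apart by the fit to all groups, though their arrays did not overlap. Casq2 had the same order, with quadriceps cKO and soleus control not told apart. Atp2a2 was highest in both soleus groups, which were not told apart, then in quadriceps cKO and last in quadriceps control. Mrln ran the other way, with quadriceps control first, quadriceps cKO and soleus control together, and soleus cKO last. Atp2a1 followed the order of Mrln, also with its middle groups not told apart outside the 4 settings named above. Pvalb had that order too, but there it was the upper pair, both from quadriceps, that was not called. Hrc and Casq1 were highest in quadriceps control, then quadriceps cKO, with both soleus groups not told apart. Their step from quadriceps cKO to soleus cKO depended on the setting. For Casq1 the call was lost after 75th percentile centring (soleus minus quadriceps -0.16, limma adjusted p = 0.0747). The Hrc arrays of these 2 groups overlapped, and the call was lost in 11 of 37 settings. Pln was highest in soleus control and the other 3 groups were not told apart.

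Among genes outside the 9, the closest to Atp2a2 over the 24 arrays were the slow-fibre genes Tpm3 and Tnnt1, with root mean square differences of 0.14 and 0.22 on the log2 scale after centring each gene, followed by Xpo4 at 0.27. The closest to Casq2 were Myom3, an M-band protein gene, at 0.28, then Lrrn1 and Nt5c2, each at 0.30. Sln was closest to Ttc9 at 0.31, followed by Atp1b4 and Ablim1, both at 0.48. For Mrln they were Cmss1, Acvr1b and Tigar, at 0.28, 0.29 and 0.30. Pvalb was closest to Mybpc2, the fast myosin-binding protein C, at 0.50, followed by Tspan8 at 0.77 and Myh4, the type IIB fast myosin heavy chain, at 0.82. The other 4 genes had group means spanning less than 1 log2 unit and were not matched. Atp2a2 and Casq2 were each other's nearest among the 9, at 0.40.

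Fibre-type markers also changed in cKO muscle. The counts below stand beside 22.3% higher and 17.7% lower of all tested genes in quadriceps, and 13.2% and 9.94% in soleus. All 8 slow-fibre markers rose in quadriceps, and their summed intensity was 16100 to 22410 in cKO and 3302 to 9570 in control. In soleus 2 of 8 rose and 1 fell, and the sum was 37900 to 38520 in cKO and 27470 to 38870 in control. Of 9 fast-fibre markers 5 fell in quadriceps, with a sum of 36700 to 42850 in cKO and 47950 to 52590 in control. In soleus 7 of the 9 fell, with 16160 to 20930 in cKO and 21340 to 33570 in control. These counts rest on a fit that shares 1 estimate of spread among the 4 groups. Myh4 and Actn3 were not called in quadriceps, though all their cKO arrays were below all controls. Myl2 was not called in soleus, though all its cKO arrays were above all controls. Conversely, Myh4, Myh1, Mybpc2 and Actn3 were called in soleus though their groups overlapped. All 5 markers of immature or regenerating fibres, cells that can contain Sln, rose in both muscles. Their sum was 3411 to 5980 in quadriceps cKO and 312.1 to 529.6 in quadriceps control, and 3579 to 5689 in soleus cKO against 533.7 to 1431 in soleus control. Of 7 heart markers only Myh6 and Tnnt2 rose, in both muscles. The heart sum was 435.4 to 656.8 in quadriceps cKO and 244.2 to 305.2 in quadriceps control, and 590.6 to 702.6 in soleus cKO against 393.6 to 513.6 in soleus control. Of 8 macrophage markers 7 rose in each muscle, with a sum of 1519 to 1838 in quadriceps cKO and 875.1 to 1440 in quadriceps control, and 1121 to 1722 in soleus cKO against 772.5 to 1005 in soleus control. Of 6 fibroblast markers 5 rose in quadriceps and 3 in soleus, of 6 adipocyte markers 3 and none, and of 5 satellite cell markers 4 and 2. The fibroblast sum overlapped in both muscles, with 9782 to 12300 in quadriceps cKO and 6463 to 11210 in quadriceps control. In soleus it was 7406 to 10480 in cKO and 8486 to 9968 in control. Adipocyte sums also overlapped in both muscles, and satellite cell sums overlapped in soleus but not in quadriceps. Of 6 endothelial markers 5 fell in soleus and none was called in quadriceps. No marker in these lists was at or below the dim limit on all arrays of a group. The part of fibre type, immature fibres or other cells in the results for the 9 genes was not tested.

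**Figure D4:**
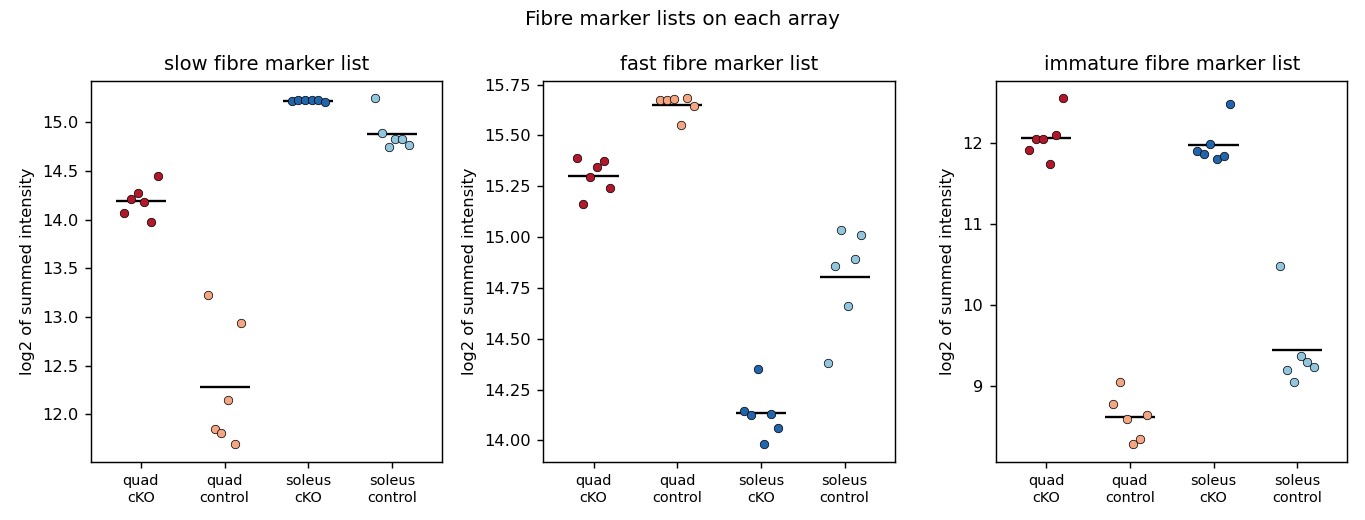
Summed intensity, on a log2 axis, of the slow-fibre, fast-fibre and immature-fibre markers on each array (points) with the group mean (bar) in quadriceps cKO, quadriceps control, soleus cKO and soleus control. The slow-fibre sum of quadriceps cKO, 16100 to 22410, lies between those of quadriceps control and soleus control.

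The wider calcium system held 53 further listed genes, of which 47 were tested. In quadriceps 13 rose and 14 fell, with a median log2 difference of -0.08, and in soleus 14 rose and 4 fell, with a median of 0.11. That is beside 22.3% higher and 17.7% lower of all tested genes in quadriceps, and 13.2% and 9.94% in soleus. The difference between the muscles was called for 12 of them, 1 positive and 11 negative, beside 7.39% and 4.89% of all genes. Of the other SERCA micropeptides, Erln differed by 0.03 in quadriceps and -0.02 in soleus and Arln by 0.12 and 0.24, and none of these passed the test. Strit1, also on that list, had no probe set of 1 symbol and was not measured. Among 8 genes of the store's lumen and junction with the surface membrane, 3 rose and 3 fell in quadriceps and 2 rose and 1 fell in soleus. Jph2, a junctophilin that ties the store to the transverse tubules, fell by 1.13 in quadriceps and differed by -0.04 in soleus. Jph1 fell by 0.52 in quadriceps and by 0.57 in soleus, and Calu, which encodes the luminal calcium-binding protein calumenin, rose by 0.51 and 0.33. Jsrp1, a junctional protein gene, fell by 0.51 in quadriceps and differed by 0.23 in soleus.

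In the calcium release channel complex 1 of 8 genes rose and 2 fell in quadriceps, and 4 rose in soleus. Over all tested genes 22.3% rose and 17.7% fell in quadriceps, and 13.2% and 9.94% in soleus. Ryr3, the minor release channel of skeletal muscle, rose by 1.13 in quadriceps and 1.87 in soleus (adjusted p = 3.03e-08 and 1.53e-11, limma). The surface channel subunits Cacnb1 and Cacng1 rose by 0.67 and 0.61 in soleus and differed by 0.09 and 0.19 in quadriceps. Stac3, which couples the surface channel to release, fell by 0.58 in quadriceps and differed by -0.12 in soleus. Among 7 genes of calcium exit, Slc8a3, a sodium-calcium exchanger, rose by 0.59 in quadriceps and 0.78 in soleus, and the plasma membrane pump Atp2b3 fell by 0.53 in quadriceps; its difference in soleus, -0.21, did not pass. Among 6 genes of store-operated entry, the channel gene Orai2 rose by 0.73 in quadriceps and 0.47 in soleus, and Saraf, which slows such entry, fell by 0.35 in quadriceps.

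Calcium sensors and the calcineurin pathway, which read cytosolic calcium, had 3 rises and 7 falls among 12 genes in quadriceps and 3 and 3 in soleus. The shares of all tested genes were 22.3% higher and 17.7% lower in quadriceps, and 13.2% and 9.94% in soleus. Camk2d, a calmodulin-dependent kinase also known from heart, rose by 1.32 in quadriceps and 1.81 in soleus. The related kinase genes Camk2a and Camk2g fell by 1.03 and 0.83 in quadriceps and differed by -0.24 and 0.01 in soleus, and Calm3, a calmodulin gene, fell by 0.93 in quadriceps and differed by 0.11 in soleus. All 4 tested genes of mitochondrial calcium handling rose in quadriceps and 3 rose in soleus. Micu2, a gatekeeper of the uniporter, rose by 0.49 and 0.37, and Mcu, its pore, by 0.18 and 0.36. Smdt1, a further uniporter subunit, rose by 0.22 and 0.38. Slc8b1, which carries calcium out of mitochondria, rose by 0.41 in quadriceps and differed by 0.11 in soleus.

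**Figure D5:**
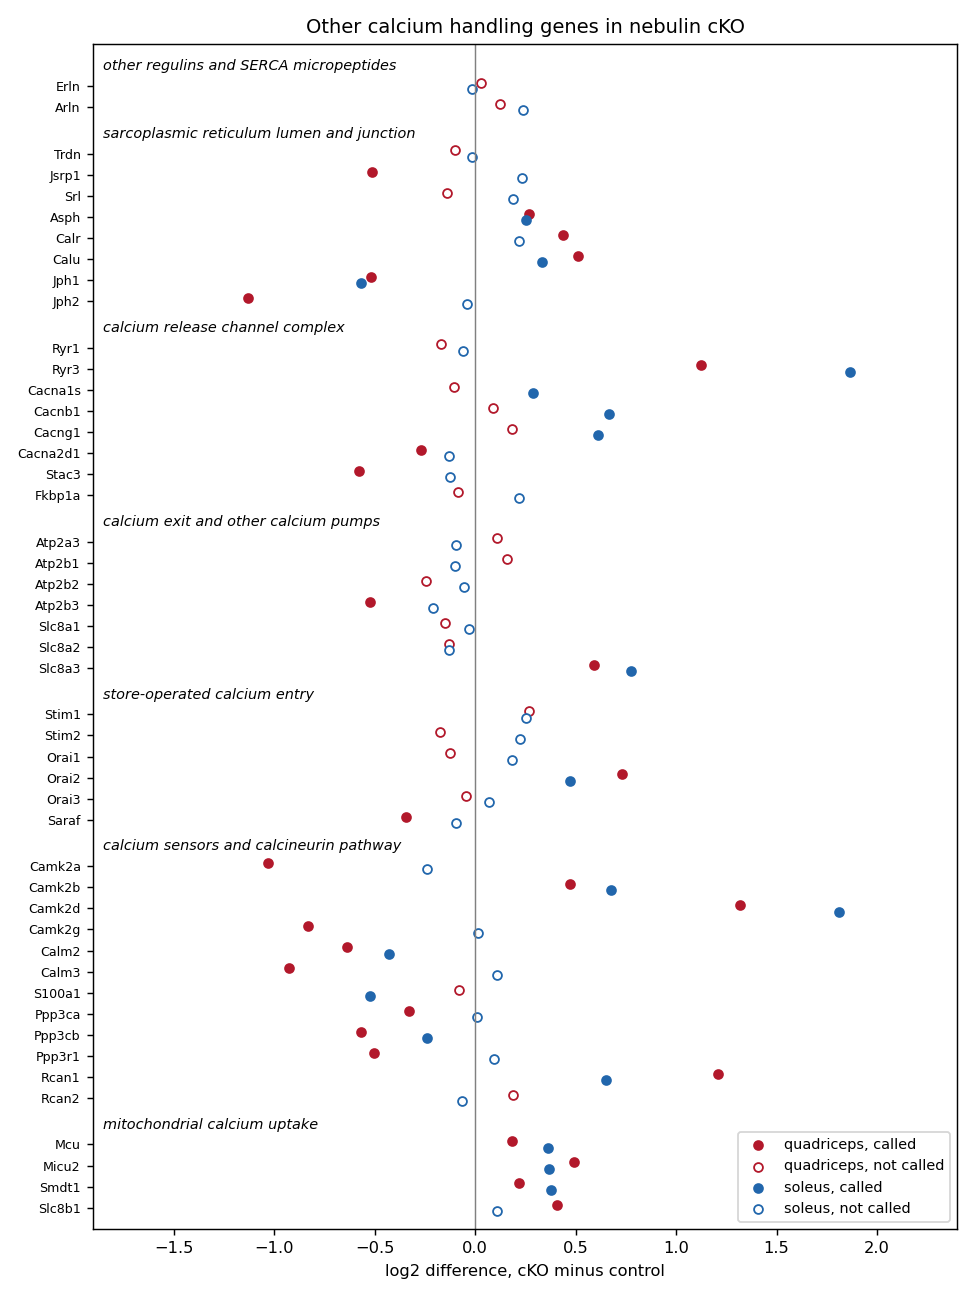
Log2 difference, cKO minus control, in quadriceps (red) and soleus (blue) for the 47 other tested calcium-handling genes, grouped by list, with filled points for genes called at an adjusted p under 0.05 (limma, 6 arrays per group). Ryr3 at 1.87 and Camk2d at 1.81, both in soleus, are furthest to the right, and Jph2 in quadriceps is furthest to the left at -1.13.

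Replicate spread was smaller in cKO than in control for 8 of the 9 genes in quadriceps and for 7 of 9 in soleus. Over all tested genes this was so for 72.2% in quadriceps and 64.8% in soleus, so a smaller spread in cKO was common across the array.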

How the data were processed

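RNA of 24 muscles (6 per group) was hybridised to Affymetrix arrays. The deposited table holds linear intensity values for 35557 probe sets, made by the authors with RMA in Affymetrix Expression Console and annotated on mm10, per the submitters' processing notes; RMA corrects background, quantile-normalizes and summarizes probes. Intensities spanned 1.76 to 10075, and log2 was taken here from the deposited values. Of the probe sets, 21789 had 1 gene symbol, 1621 several and 12147 none listed; symbols were updated through Entrez for 21698. For a gene with several probe sets, the one with the highest mean was used. Genes above the 30th percentile on at least 6 arrays were kept (15999 of 19938); this percentile, the dim limit, lay between 3.51 and 3.72 log2 units. Each group mean rests on 6 arrays, and the spread of each gene was estimated over all 4 groups together.

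The 4 group means were fitted to all 24 arrays with limma 3.58.1 in R 4.3.3 (empirical Bayes, 20 residual degrees of freedom), and 7 comparisons were adjusted by Benjamini-Hochberg over all genes. Quadriceps and soleus arrays of 1 genotype with the same number deviated together (6 of 6 pairs over 0.1 in each genotype, r between 0.16 and 0.45) and were taken as 1 animal in a blocked alternative. The labels do not name the animals, and cKO number 4 is labelled 40 days old for quadriceps and 41 for soleus. Across genotypes 1 to 4 of 6 same-numbered pairs were over 0.1. There the same number was the best match for 3 or 4 of 6 arrays, against 6 of 6 within each genotype. The numbers were not taken to pair samples across genotypes in the main fit, but were a fixed block in 1 alternative. What same-numbered arrays share was not tested. Numbers 5 and 6 have the same age (42 and 40 days) in all groups. Other alternatives changed centring, filter, probe set, prior, weights and arrays.

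The 9 genes and all lists were chosen with earlier results of these data known. All 9 were reported; from each other calcium list at most 4 genes with the smallest p in either muscle were named, and 3 nearest genes for each member whose group means spanned at least 1. The marker genes named singly were chosen after their values were seen. Besides the E-box and MEF2 box, the motifs searched on both strands were CAGCTG (1 form of the E-box, in 13.0% of the 32851 windows), the motif GGAAA (55.6%), the TATA box (15.6%) and the CArG box (1.47%).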

Additional observations from a re-analysis of the deposited data

Results flagged for a closer look

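In 4 of 36 gene and group sets of 6 arrays, 1 array stood apart from its group by Dixon's test, where chance flags about 1 in 20. Atp2a1 was 12.73 on quadriceps control 4, below its group. Soleus control 1 was apart in 3 genes, with Atp2a2 at 12.44 and Casq2 at 10.89 above their group and Mrln at 7.58 below it. No call on these genes between cKO and control was lost without those arrays.

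The change in quadriceps differed from that in soleus, by a test of the difference itself, for 8 genes. On the log2 scale, quadriceps minus soleus, the difference was 2.30 for Pvalb, 1.62 for Atp2a2, 1.28 for Casq2, 1.13 for Sln, 0.80 for Pln and 0.34 for Atp2a1, and -0.84 for Mrln and -0.43 for Hrc. The adjusted p lay between 0.000183 and 0.0204 (limma).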

How the results depend on the processing

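Of 2322 recomputed values of the 9 genes, 2278 kept their direction and their side of the threshold, 25 became called, 17 lost the call and 2 changed sign. Many of the 2278 could not change direction. Most settings left out 1 array, and leaving out an array of a group not compared does not move the difference. Averaging probe sets cannot move it either, as each of the 9 genes had 1 probe set. The 2 that changed sign were differences that were not called: Mrln in quadriceps cKO against soleus control was -0.0016 after quantile normalization, and Pln in soleus cKO against quadriceps control was 0.0798 when the 3 arrays of lowest weight were left out together. The number of genes called for the difference between muscles, 1966, was 3570 with array weights, 3675 without those 3 arrays, and 3038 without quadriceps controls 1 and 6; the last 2 settings were chosen after seeing the data. With animal as a replicate block, it was 2952 and 9 of the 9 genes were called in place of 8, Casq1 being added. With the replicate number as a fixed block it was 2475, also with 9 of 9, and Pvalb in quadriceps was called (adjusted p = 0.0461). The blocks changed no other call between cKO and control in either muscle. Leaving out each array in turn gave 5692 to 7240 genes called in quadriceps, 3235 to 4277 in soleus and 1576 to 2856 for the difference, and 7 to 8, 6 and 8 to 9 of the 9 genes. Casq1 was called for the difference in 15 of 36 settings, with adjusted p between 0.00446 and 0.114, and Pvalb in quadriceps in 5 of 37, between 5.03e-05 and 0.127. The cause of these changes was not tested. A fit of only the groups compared cannot give the difference, which needs all 4. The dimmest values, Sln in quadriceps control and Pln, and the brightest, Atp2a1, Casq1, Pvalb in quadriceps and Atp2a2 in soleus, are the least certain in size.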
